A study of Arabidopsis thaliana with 9 samples.

Results

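SPCH (SPEECHLESS, AT5G53210) and YAB5 (YABBY5, AT2G26580) are nuclear transcription factor genes of leaf development, and their signals were followed in every array of a study of SPL13 transgenic seedlings. Both were chosen by gene symbol, as the probe sets that the platform's annotation pairs with that single gene. This gave 2 probe sets, 1 per gene, of 22810 on the array, and 2 of 13286 genes that the array names singly. The choice was made with their values in these arrays known, so the differences of SPCH and YAB5 between genotypes are given as a description, with no test. RefSeq lists 2 transcripts for each gene, and a single probe set per gene cannot separate them.

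The study profiled whole seedlings of Arabidopsis thaliana, 3 days old, on 9 one-colour Affymetrix arrays, 3 for each of 3 genotypes. The mSPL13 seedlings carry a mutant SPL13 gene that resists the microRNA miR156, the SPL13 seedlings carry the non-mutated gene, and Col-0 is the untransformed wild type. Both transgenes were driven by the native SPL13 promoter and placed in Col-0 plants, so the transgenic seedlings keep their own SPL13 genes as well. Growth was the same for all: plates with 1% sucrose were kept at 4 °C without light for 3 days, then at 22 °C in light for 3 more, and the 3 arrays of a genotype are, per the labels, independent biological replicates from independent seed lots. The labels do not say how many transgenic lines were used, and the level of SPL13 itself was not analysed here. With 3 arrays per genotype, the number of arrays limits precision.

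SPCH is a basic helix-loop-helix (bHLH) factor that starts the stomatal lineage. It drives the first asymmetric divisions of epidermal precursor cells in cotyledons and young leaves, after which the related factors MUTE and FAMA end these divisions and form the guard cells. SPCH acts with the bHLH partners ICE1 and SCRM2, and a chain of secreted peptides, receptors and MAP kinases holds its protein in check. YAB5 belongs to the YABBY family, whose members carry a zinc finger and a YABBY domain, are expressed on the lower (abaxial) side of leaf primordia and promote lamina growth together with co-repressors such as LEUNIG and SEUSS. SPL factors, which miR156 holds low in young seedlings, control the passage from juvenile to adult leaves.

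SPCH was highest in mSPL13, intermediate in SPL13 and lowest in Col-0, and no 2 genotypes overlapped. Its signal was 479.6, 417.0 and 301.6 in mSPL13 replicates 1, 2 and 3. In SPL13 it was 209.3, 228.7 and 291.5. In Col-0 it was 157.1, 163.8 and 190.9. The lowest mSPL13 array, replicate 3, thus lay only just above the highest SPL13 array, also a replicate 3, while all mSPL13 arrays stood well clear of Col-0.

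The means were 399 ± 90.3 in mSPL13 and 243 ± 43.0 in SPL13, against 171 ± 17.9 in Col-0 (SD, n = 3 each). The spread grew with the level, with an SD of 22.6% of the mean in mSPL13 and 17.7% in SPL13, against 10.5% in Col-0. The difference in mean signal was 156 between mSPL13 and SPL13 and 72.6 between SPL13 and Col-0, each larger than the SD of either group. Set against the Col-0 mean, single mSPL13 arrays were at 2.81, 2.44 and 1.77 times that level, and single SPL13 arrays at 1.23, 1.34 and 1.71 times. As whole seedlings were used, more stomatal lineage cells and more SPCH RNA per cell cannot be told apart.

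On the log2(signal + 20.7) scale, where 20.7 is the 20th percentile of all signals, SPCH differed by 0.66 ± 0.18 (moderated SE from limma) between mSPL13 and SPL13, a 1.58-fold difference. It differed by 1.12 ± 0.18 between mSPL13 and Col-0, or 2.17-fold, and by 0.46 ± 0.18 between SPL13 and Col-0, or 1.37-fold. The 3 comparisons share arrays and are not independent of each other. Differences between single arrays of 2 genotypes ranged from 0.05 to 1.12 for mSPL13 minus SPL13, from 0.61 to 1.49 for mSPL13 minus Col-0 and from 0.12 to 0.81 for SPL13 minus Col-0. Of 13647 probe sets kept for the fit, SPCH had the 248th, the 54th and the 179th largest rise in these comparisons.

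Groups that do not overlap are common here. Of all probe sets kept, 12.3% were higher in every mSPL13 array than in every SPL13 array. Likewise 12.6% were higher in mSPL13 than in Col-0, and 6.98% in SPL13 than in Col-0. In the same order, 11.7%, 10.5% and 6.07% were lower. The full order seen for SPCH, with mSPL13 above SPL13 above Col-0 and no overlap, was found in 86 probe sets (0.630%). Because SPCH was chosen on these arrays, nothing is read from its place among them.

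YAB5 gave another pattern, lowest in mSPL13 and most even in SPL13. Its signal was 163.5, 209.3 and 148.4 in mSPL13 replicates 1, 2 and 3. It was 286.1, 266.6 and 287.4 in SPL13. In Col-0 it was 176.7, 391.8 and 201.8. Every mSPL13 array was below every SPL13 array, as in 11.7% of all probe sets kept. Col-0 overlapped with both transgenic genotypes, since replicate 2 gave the highest value of all 9 arrays and the other Col-0 arrays lay near the mSPL13 arrays.

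The mean YAB5 signal was 174 ± 31.7 in mSPL13 and 280 ± 11.7 in SPL13, against 257 ± 118 in Col-0 (SD, n = 3 each). The SD was 18.3% of the mean in mSPL13 and 4.16% in SPL13, against 45.8% in Col-0. The order of the means was SPL13, Col-0, mSPL13, and neither SPL13 and Col-0 nor Col-0 and mSPL13 differed by more than the SD within Col-0. Without Col-0 replicate 2 the Col-0 mean was 189 ± 17.7 (SD, n = 2), next to the mSPL13 mean.

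The log2 difference of YAB5 was -0.64 ± 0.23 (SE) for mSPL13 versus SPL13, which is 0.64 times the SPL13 level. It was -0.45 ± 0.23 for mSPL13 versus Col-0 and 0.19 ± 0.23 for SPL13 versus Col-0. The values against Col-0 rest on Col-0 replicate 2. Without that array they were -0.12 for mSPL13 versus Col-0 and 0.52 for SPL13 versus Col-0, and without Col-0 replicate 1 the SPL13 value was -0.01. Single-array differences of mSPL13 minus SPL13 were all negative, from -0.87 to -0.32, while those against Col-0 took both signs, from -1.29 to 0.22 for mSPL13 and from -0.52 to 0.64 for SPL13.

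**Figure D1:**
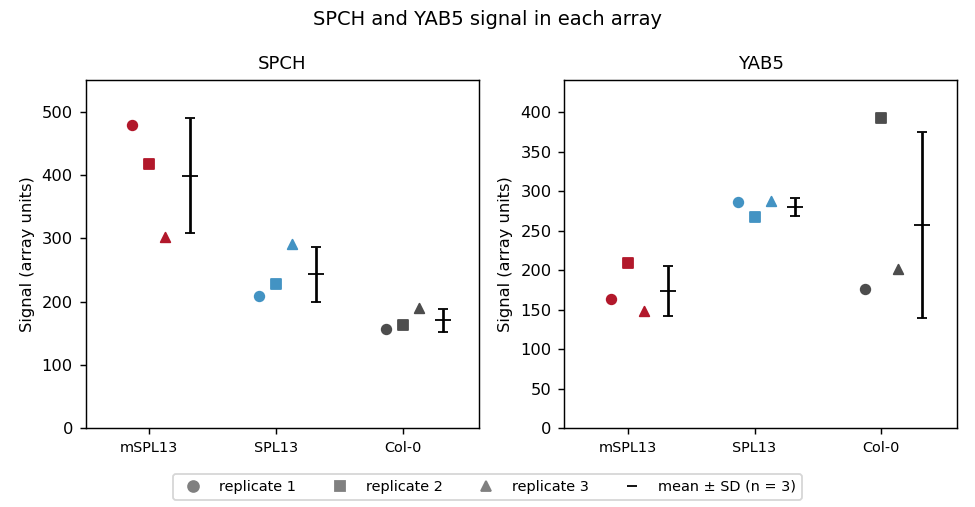
Signal (array units, vertical axis from 0) of SPCH (left) and YAB5 (right) by genotype, with 1 point per array (marker shape gives the replicate) and a bar for the mean ± SD of 3 arrays. SPCH steps down across mSPL13, SPL13 and Col-0 without overlap, with mSPL13 replicate 3 at 301.6 close to SPL13 replicate 3 at 291.5, and YAB5 is low in mSPL13, even in SPL13 and spread from 176.7 to 391.8 in Col-0.

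Measures of the samples differed between genotypes too. Chloroplast-encoded probe sets were low in SPL13, the genotype in which YAB5 had its highest mean, with a median log2 level, relative to the Col-0 mean over 66 probe sets, of -0.03 to 0.30 in mSPL13 and -2.35 to -0.80 in SPL13, against -0.28 to 0.18 in Col-0. The ratio of 3' to 5' signal, a sign of RNA integrity, was taken for 6 control pairs, and the order of the genotypes differed among them. The first GAPDH pair averaged 0.957 in mSPL13 and 0.919 in SPL13, against 0.882 in Col-0, and all genotypes overlapped. In the second GAPDH pair mSPL13 overlapped with SPL13 at 1.01 to 1.10 and 0.838 to 1.03, and lay above Col-0 at 0.944 to 0.999. The actin pairs overlapped in all genotypes, the first at 12.4 to 28.8 in mSPL13 and 17.1 to 33.0 in SPL13, against 8.86 to 20.3 in Col-0, and the second at 2.27 to 3.21 in mSPL13 and 2.21 to 2.94 in SPL13, against 2.49 to 2.67 in Col-0. The first ubiquitin pair overlapped as well, at means of 2.31 in mSPL13 and 2.54 in SPL13, against 2.19 in Col-0. The second ubiquitin pair was higher in mSPL13, at 1.10 to 1.28, than in SPL13, at 1.05 to 1.09, and Col-0, at 1.05 to 1.20, overlapped with both. The part of these measures in the SPCH and YAB5 signals was not tested.

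Markers of tissues and cell types were listed to describe the seedlings. Nuclear photosynthesis genes of green tissue were strong in all genotypes, and the 3 measured, of 9 listed, did not move one way. PRK (phosphoribulokinase of the Calvin cycle) averaged 11139 ± 878 in mSPL13 and 13128 ± 1166 in SPL13, against 10859 ± 1080 in Col-0 (SD, n = 3 each), with every SPL13 array above every Col-0 array. RCA, the Rubisco activase, averaged 20550 ± 1786 in mSPL13 and 23620 ± 1341 in SPL13, against 22579 ± 1927 in Col-0 (SD, n = 3 each), with overlap. LHCB4.2, of the light-harvesting antenna, averaged 18812 ± 987 in mSPL13 and 16360 ± 2362 in SPL13, against 17306 ± 2202 in Col-0 (SD, n = 3 each), with every mSPL13 array above every SPL13 array. Such orders were found for 6.98% (SPL13 above Col-0) and 12.3% (mSPL13 above SPL13) of all probe sets kept. None of the 3 genes was called by limma, and the lowest adjusted p was 0.293. Of all probe sets, 3.03% were called for mSPL13 versus SPL13, 4.37% for mSPL13 versus Col-0 and 0.0513% for SPL13 versus Col-0. At an unadjusted p under 0.05 there were 1 for mSPL13 versus SPL13, 0 for mSPL13 versus Col-0 and 1 for SPL13 versus Col-0, where 16.7%, 20% and 8.83% of all probe sets passed. Their summed signal was 49145 to 51549 in mSPL13, 50831 to 54349 in SPL13 and 47386 to 54030 in Col-0. Of 10 genes listed for the root 4 were measured, and PYK10 gave most of their summed signal. The sum was 23758 to 25522 in mSPL13, 25152 to 27228 in SPL13 and 26811 to 29424 in Col-0. Of the 4 genes, 1 was called lower in mSPL13 versus SPL13 and versus Col-0, where 1.17% and 2.30% of all probe sets were called lower. It was NAI2, an endoplasmic reticulum body gene, with a log2 difference of -0.60 ± 0.11 (limma adjusted p = 0.00970) and -0.67 ± 0.11 (limma adjusted p = 0.00377). All 4 log2 differences were negative in mSPL13 versus Col-0, with a median of -0.29, and in SPL13 versus Col-0, with a median of -0.21, and 2 of 4 were negative in mSPL13 versus SPL13, with a median of -0.06. EXPA18, a root hair expansin, had lower signals in every mSPL13 array than in every Col-0 array, as for 10.5% of all probe sets kept. Its log2 difference was -0.50 ± 0.15 and did not pass (limma adjusted p = 0.0795). The root and green tissue genes measured cover a small part of each list. Whether each of them marks a single tissue in these seedlings was not tested, nor was their part in the SPCH and YAB5 values. Of the 18 epidermis and trichome genes listed, 2 were measured, and ACR4, a receptor kinase of the epidermis, differed by 0.09 ± 0.20 for mSPL13 versus SPL13 and 0.03 ± 0.20 versus Col-0. The probe annotation named none of the 13 guard cell and 9 seed genes listed, so mature stomata could not be followed by their own markers.

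The other genes of the stomatal lineage that could be measured were set beside SPCH, and they cover a small part of its pathway. Of 53 genes listed beside SPCH, 7 were named by the probe annotation and 4 passed the filter on low signal (mean log2 above 6.922, the 40th percentile). In each mSPL13 comparison 1 of the 4 was called at a limma adjusted p under 0.05, higher in mSPL13. Over all probe sets 1.86% were called higher in mSPL13 versus SPL13 (3.03% in either direction) and 2.07% in mSPL13 versus Col-0 (4.37%). For SPL13 versus Col-0, 0 of 4 were called by limma, where 0.0513% of all probe sets were called. At an unadjusted p under 0.05 there were 3 of 4 for mSPL13 versus SPL13, 1 for mSPL13 versus Col-0 and 2 for SPL13 versus Col-0, where the shares of all probe sets were 16.7%, 20% and 8.83%. The median log2 difference of the 4 was 0.14 for mSPL13 versus SPL13, 0.04 for mSPL13 versus Col-0 and 0.08 for SPL13 versus Col-0, against -0.00, 0.01 and 0.01 over all probe sets.

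MUTE and FAMA, the bHLH factors that act after SPCH, did not pass the filter, so no fold change was fitted for them. MUTE gave 43.1, 57.7 and 51.2 in mSPL13, 52.6, 39.7 and 52.6 in SPL13, and 49.6, 49.7 and 58.7 in Col-0. All genotypes overlapped for MUTE. FAMA gave 107.5, 146.2 and 110.2 in mSPL13, 97.0, 121.8 and 60.2 in SPL13, and 91.6, 82.1 and 93.5 in Col-0. Its mSPL13 arrays were above all Col-0 arrays, as for 12.6% of all probe sets kept, and overlapped with SPL13. Its mean log2 was 6.902, just under the filter. No probe set was named for the SPCH partners ICE1 and SCRM2.

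Among the secreted signals and receptors, EPFL9 (STOMAGEN), a peptide from the mesophyll that promotes stomatal formation, was the 1 gene measured of 15. Its signal was 1202.8, 1090.7 and 1348.4 in mSPL13, 1048.1, 901.1 and 911.5 in SPL13, and 1442.3, 1283.9 and 1063.1 in Col-0. The SPL13 arrays were thus the low ones, below every array of the other genotypes. Of all probe sets kept, 12.3% were higher in mSPL13 than in SPL13 without overlap, and 6.07% were lower in SPL13 than in Col-0. The highest SPL13 array, at 1048.1, lay only just below the lowest Col-0 array, at 1063.1. The log2 difference was 0.34 ± 0.13 for mSPL13 versus SPL13 (limma adjusted p = 0.209), -0.05 ± 0.13 for mSPL13 versus Col-0 (0.880) and -0.39 ± 0.13 for SPL13 versus Col-0 (0.436), and none passed.

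SOL1 (AT3G22760), a CXC-domain protein that helps cells leave successive states of the stomatal lineage, was the member called. Its signal was 333.5, 373.4 and 365.9 in mSPL13, 219.0, 235.5 and 249.2 in SPL13, and 200.9, 246.4 and 273.7 in Col-0. SPL13 and Col-0 overlapped, and all mSPL13 arrays were above both, as for 12.3% (SPL13) and 12.6% (Col-0) of all probe sets kept. It rose by 0.57 ± 0.14 on the log2 scale in mSPL13 versus SPL13 (limma adjusted p = 0.0421) and by 0.54 ± 0.14 versus Col-0 (limma adjusted p = 0.0443), with -0.02 ± 0.14 for SPL13 versus Col-0. Both calls lay close to the threshold. Under 19 other settings the difference from SPL13 was 0.45 to 0.61 and missed the threshold in 10, and that from Col-0 was 0.43 to 0.64 and missed it in 11. Among the 9 fits that leave out 1 array, each call was lost in 7.

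The other division and polarity genes did not pass. AGL16, a MADS-box factor tied to the extra divisions of the lineage, had 215.3, 183.6 and 215.5 in mSPL13, 268.1, 282.3 and 300.4 in SPL13, and 210.0, 184.4 and 276.0 in Col-0. Its mSPL13 arrays were below its SPL13 arrays, as for 11.7% of all probe sets kept. The log2 difference was -0.43 ± 0.16 (limma adjusted p = 0.164). ARR16, a cytokinin response regulator, averaged 126 ± 4.55 in mSPL13 and 132 ± 23.3 in SPL13, against 113 ± 20 in Col-0 (SD, n = 3 each), and all genotypes overlapped. BRXL2, a partner of the polarity protein BASL, had 68.1, 94.4 and 99.4 in mSPL13, 100.8, 78.6 and 110.6 in SPL13, and 144.6, 111.2 and 112.3 in Col-0. Its mSPL13 and SPL13 arrays overlapped and were all below the Col-0 arrays, as for 10.5% and 6.07% of all probe sets kept. The mean log2 was 6.921, just under the filter. No probe set was named for the kinases upstream of SPCH on the list.

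**Figure D2:**
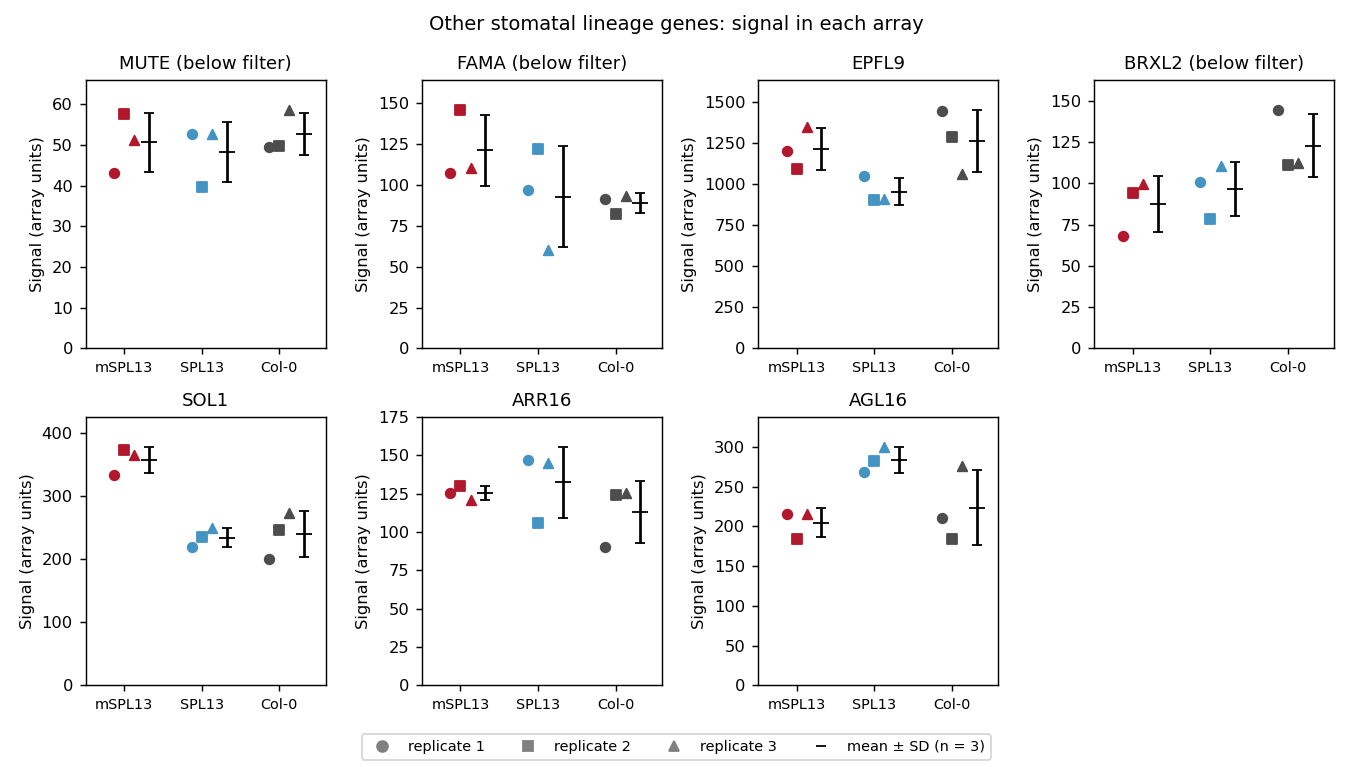
Signal (array units, vertical axis from 0) of the 7 other stomatal lineage genes measured, by genotype, with 1 point per array and a bar for the mean ± SD of 3 arrays. SOL1 is higher in all mSPL13 arrays (333.5 to 373.4) than in the other 6 arrays, EPFL9 is lowest in SPL13, and MUTE overlaps in all genotypes at 39.7 to 58.7.

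A further 7 bHLH genes carry the family name in the gene table, a group formed after the annotation was seen, and 5 passed the filter. None of the 5 was called by limma in any comparison, where 3.03%, 4.37% and 0.0513% of all probe sets were called for mSPL13 versus SPL13, mSPL13 versus Col-0 and SPL13 versus Col-0. At an unadjusted p under 0.05 there were 0, 1 and 1 of the 5, beside 16.7%, 20% and 8.83% of all probe sets. Their log2 differences in mSPL13 versus Col-0 were between -0.34 and 0.28.

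For YAB5, the comparison was with the other YABBY genes and the regulators of leaf sides, the meristem and leaf growth. Of 69 genes listed beside YAB5, 12 were named by the probe annotation and 7 passed the filter. In all 3 comparisons 0 of the 7 were called by limma, where 3.03%, 4.37% and 0.0513% of all probe sets were called for mSPL13 versus SPL13, mSPL13 versus Col-0 and SPL13 versus Col-0. At an unadjusted p under 0.05 there were 1, 3 and 0 of the 7, where 16.7%, 20% and 8.83% of all probe sets passed. The median log2 difference was 0.07 for mSPL13 versus SPL13, -0.03 for mSPL13 versus Col-0 and -0.04 for SPL13 versus Col-0.

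YAB3, a YABBY gene that acts redundantly with FIL in leaf primordia, had signals of 426.8, 382.1 and 442.1 in mSPL13, 351.5, 359.3 and 357.8 in SPL13, and 290.8, 380.8 and 347.0 in Col-0. Its mSPL13 arrays lay above those of SPL13 and of Col-0, as for 12.3% and 12.6% of all probe sets kept. For YAB5 the mSPL13 arrays lay below those of SPL13 and overlapped with Col-0. The log2 difference of YAB3 was 0.21 ± 0.13 for mSPL13 versus SPL13 (limma adjusted p = 0.444) and 0.29 ± 0.13 for mSPL13 versus Col-0 (0.236), and neither passed. Whether YAB3 and YAB5 differed in their response was not tested. INO, a YABBY gene of the ovule's outer integument, did not pass the filter and had 2.8 to 46.8 over the 9 arrays, with all genotypes overlapping.

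SEU (SEUSS), a co-regulator that binds YABBY proteins, averaged 462 ± 51.6 in mSPL13 and 392 ± 36.3 in SPL13, against 405 ± 49.6 in Col-0 (SD, n = 3 each). Its log2 difference was 0.23 ± 0.14 for mSPL13 versus SPL13 and 0.18 ± 0.14 for mSPL13 versus Col-0, and the genotypes overlapped. PHV (PHAVOLUTA), an HD-ZIP III factor of the upper leaf side, had means closer together than the SD of any genotype, at 380 ± 43.9 in mSPL13 and 384 ± 28.2 in SPL13, against 388 ± 42.6 in Col-0 (SD, n = 3 each). No probe set was named for the KANADI genes, ETT or ARF4 of the lower side.

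AGO7 and SE (SERRATE), which serve the small RNA pathways that bound the leaf sides, overlapped between all genotypes, with log2 differences of -0.10 ± 0.19 and 0.09 ± 0.14 for mSPL13 versus SPL13. Of the growth regulators, SPT (SPATULA), a bHLH factor that restrains cotyledon and leaf expansion, gave 289.5, 328.2 and 204.6 in mSPL13, 315.6, 432.8 and 393.7 in SPL13, and 346.5, 387.1 and 494.9 in Col-0. Every mSPL13 array of SPT was below every Col-0 array, as for 10.5% of all probe sets, and it overlapped with SPL13. Its log2 difference was -0.46 ± 0.18 for mSPL13 versus SPL13 (limma adjusted p = 0.217) and -0.55 ± 0.18 for mSPL13 versus Col-0 (0.107). AN (ANGUSTIFOLIA), which controls the width of leaf cells, differed by 0.07 ± 0.12 for mSPL13 versus SPL13 and by 0.26 ± 0.12 for mSPL13 versus Col-0, and did not pass. CLV3, LAS, JAG and NUB, regulators of the meristem, its axils and the lamina, did not pass the filter. LAS had 82.2, 79.2 and 41.4 in Col-0 and at most 52.4 in mSPL13 and in SPL13. CLV3, JAG and NUB stayed at or below 54.0 in all arrays.

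**Figure D3:**
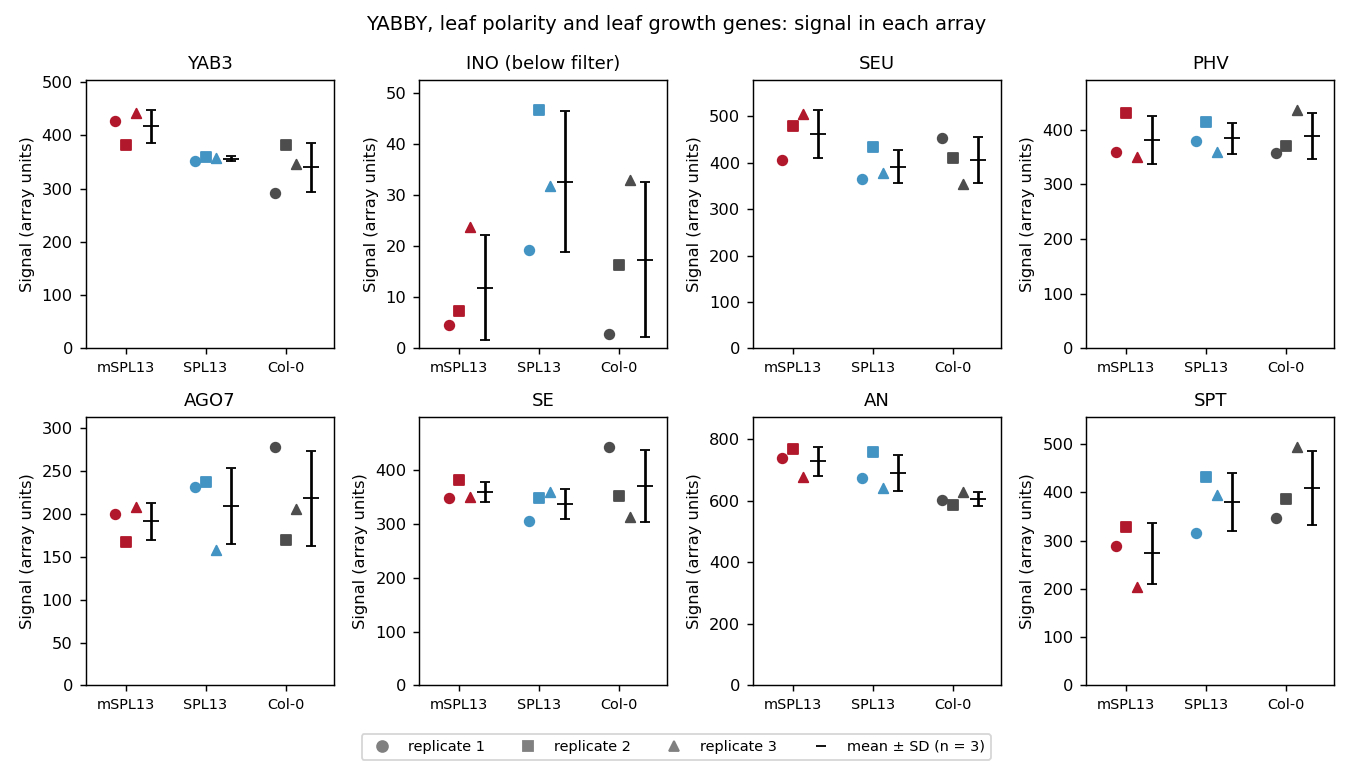
Signal (array units, vertical axis from 0) of the YABBY genes YAB3 and INO and of 6 leaf polarity and growth genes, by genotype, with 1 point per array and a bar for the mean ± SD of 3 arrays. YAB3 is highest in mSPL13 (382.1 to 442.1), PHV overlaps in all genotypes, and SPT is lowest in mSPL13 with overlap with SPL13.

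**Figure D4:**
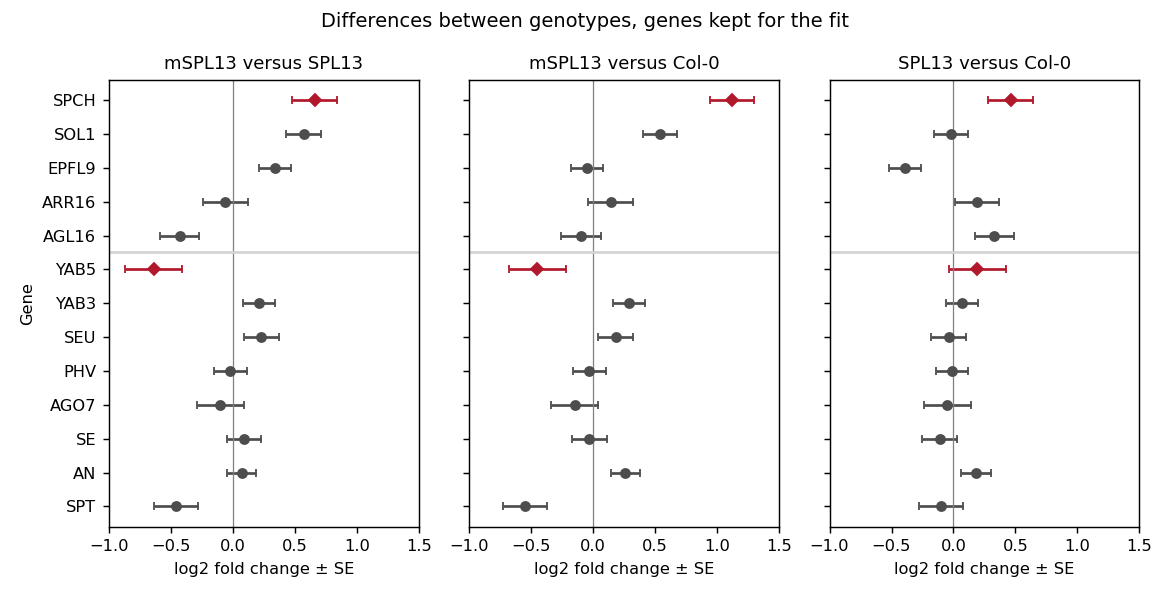
Log2 fold change (horizontal axis, points with bars of 1 moderated SE) of SPCH and YAB5 (red diamonds) and of the other stomatal (upper block) and leaf polarity and growth genes (lower block) that passed the filter, in the 3 comparisons. SPCH is positive in all 3, at 0.66, 1.12 and 0.46, SOL1 is positive in the mSPL13 comparisons only and at -0.02 in SPL13 versus Col-0, and YAB5 is at -0.64, -0.45 and 0.19.

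The genes next to SPCH and YAB5 on the chromosome were followed as well, from the order of protein-coding genes in the TAIR10.1 table. On one side of SPCH lies TRY, an R3 MYB repressor of trichomes, and on the other AT5G53220. Both were below the filter. TRY had 80.1, 50.5 and 70.9 in mSPL13, 42.0, 44.6 and 45.5 in SPL13, and 78.3, 36.9 and 20 in Col-0. Its mSPL13 arrays were above its SPL13 arrays, as for 12.3% of all probe sets kept, and overlapped with Col-0. AT5G53220 had 53.5 to 81.2 in mSPL13, 60.6 to 113.0 in SPL13 and 54.0 to 91.2 in Col-0.

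SWEET3, a member of the SWEET family of sugar transporters, lies next beyond TRY and was singled out after its values were seen. It had 221.2, 370.8 and 321.2 in mSPL13, 166.9, 126.0 and 104.9 in SPL13, and 94.9, 94.3 and 125.5 in Col-0. Like SPCH it was higher in every mSPL13 array than in SPL13 (12.3% of all probe sets kept) and in Col-0 (12.6%). Its SPL13 and Col-0 arrays overlapped. It rose by 1.08 ± 0.21 on the log2 scale versus SPL13 (limma adjusted p = 0.0120) and by 1.35 ± 0.21 versus Col-0 (limma adjusted p = 0.00249). Without SPL13 replicate 3, mSPL13 replicate 2 or mSPL13 replicate 3 the call versus SPL13 was lost, at 0.94, 0.93 and 1.03. The mSPL13 array with the highest SPCH signal, replicate 1, had the lowest SWEET3 signal of the 3. The nearest genes to YAB5, WEB1 and RPN13, had no probe set named for them alone. AT2G26600, the second gene on that side, had overlapping arrays, at 281 ± 30.7 in mSPL13 and 294 ± 25.8 in SPL13, against 299 ± 11.7 in Col-0 (SD, n = 3 each).

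The genes whose pattern was most like each of the 2 genes were found by Pearson's r of log2 signals over the 9 arrays, among 7292 other probe sets of 1 gene. These r values describe the arrays, which fall into genotypes, and carry no test. For SPCH the 5 highest were AT1G11240 (r = 0.946), AT4G39900 (0.944), MAC3B of the MOS4-associated complex (0.943), AT5G19350 (0.943) and AT2G41620 (0.942), and 44 probe sets exceeded 0.9. MAC3B had 2376.1, 2205.1 and 2128.1 in mSPL13, 1787.0, 1723.9 and 1798.3 in SPL13, and 1547.6, 1420.3 and 1475.8 in Col-0. Of the 5, all but AT1G11240 had the full order of SPCH without overlap, and AT1G11240 overlapped between mSPL13 and SPL13. Over all probe sets kept, 0.630% had that order. The 5 were picked for likeness to SPCH on these same arrays, so a shared order follows largely from the choice. Their log2 differences for mSPL13 versus Col-0 were 0.43 to 0.74, and that of SPCH was 1.12.

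For YAB5 the 5 highest were AT1G55450 (r = 0.958), AT3G14760 (0.941), AT5G59080 (0.936), AT4G18970 (0.933) and AT4G28780 (0.930), and 12 probe sets exceeded 0.9. All 5 had their highest Col-0 signal in replicate 2, as YAB5 did, which also follows largely from the choice. With the genotype means taken out, r with YAB5 was 0.963, 0.970, 0.892, 0.908 and 0.889 in the same order. For the 5 genes like SPCH, r with SPCH was then 0.554 to 0.838. All these genes were picked on the same arrays, so high r values follow largely from the choice. Within genotypes YAB5 varied most in Col-0, with an SD of 118, against 31.7 in mSPL13 and 11.7 in SPL13. The r values for YAB5 and for SPCH are therefore not compared. AT4G28780 had 251.8, 276.9 and 201.3 in mSPL13, 535.4, 348.3 and 387.5 in SPL13, and 295.5, 606.9 and 342.2 in Col-0.

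**Figure D5:**
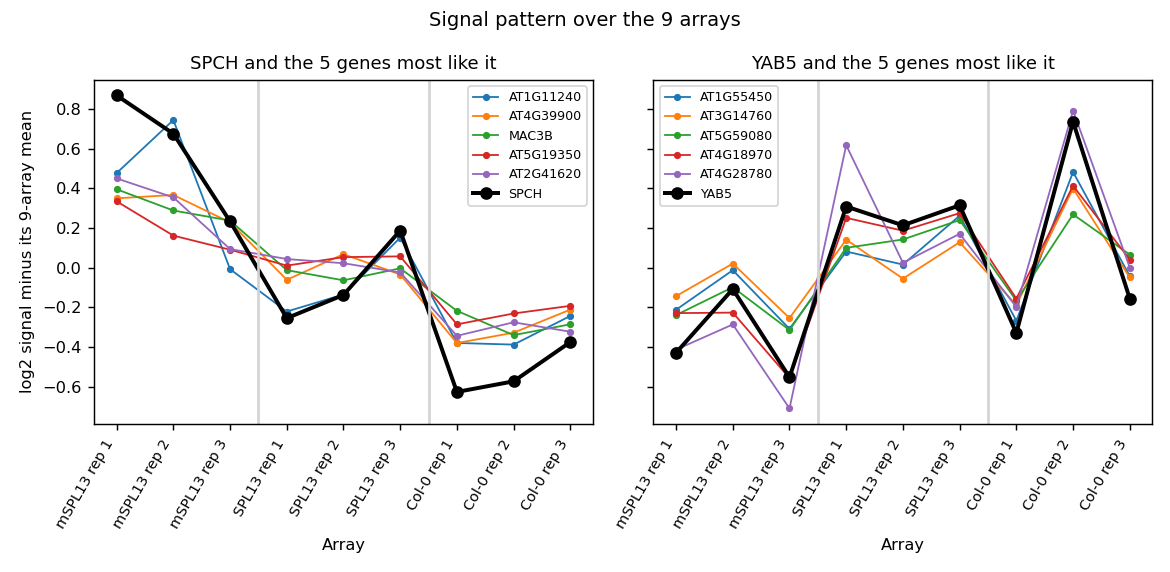
Log2 signal minus its own 9-array mean (vertical axis) in each array (horizontal axis) for SPCH (left, black) and YAB5 (right, black) with the 5 genes of highest Pearson r for each. The genes like SPCH step down across mSPL13, SPL13 and Col-0, and those like YAB5 share its peak in Col-0 replicate 2. Both patterns follow largely from how the genes were chosen.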

How the data were processed

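The authors deposited 1 intensity per probe set and array, on a linear scale. GCOS and MAS5 are named per the submitters' processing notes, with no version, and the trimmed mean (2% off each end) is 500.1 on every array. Of 22810 probe sets, 64 controls were left out. The annotation pairs 13513 with 1 gene, and 13436 of those have an entry in the TAIR10.1 table. It pairs 503 with several genes and lists no gene for 8730. A gene for which no probe set was named here is thus not shown to be absent from the array. No gene sequence was used here.

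Values were log2(signal + 20.7). The 13647 probe sets with a mean above 6.922 went into a limma 3.58.1 fit (R 4.3.3) with a mean for each genotype, a variance trend, and 6 residual plus 7.92 prior degrees of freedom, adjusted by Benjamini-Hochberg over the whole set. The fit was also run on simulated data with independent noise for each probe set. Shifts shared between probe sets were not part of that run. Of 184 genes in 15 lists, 30 had a probe set that the annotation pairs with that gene alone. The genes and lists were chosen with earlier results of these data known. Named genes were all measured stomatal bHLH, YABBY, co-regulator and leaf side genes, called or lowest-p members of other lists, nearest neighbours and the 5 most alike, with members below the filter added to account for the lists. Same-numbered arrays of different genotypes were not treated as pairs. Their r of deviations was -0.0602 to 0.149, with 3 of 9 above the set threshold of 0.1. Arrays with different numbers had r of -0.16 to 0.197. These values do not settle whether same-numbered arrays pair. The 20 alternatives changed the pseudocount (10th percentile, 40th percentile or none), the filter (none, or 60th percentile), the scaling (quantile, median), the variance trend, the arrays fitted, the replicate block and the array weights. Tables were made in Python 3.11.15 (numpy 2.4.6; pandas 2.3.3) and figures with matplotlib 3.10.9.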

Additional observations from a re-analysis of the deposited data

How the results depend on the processing

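SPCH kept a positive log2 difference in all 3 comparisons under the 19 settings that gave it a value, and YAB5 a negative one in both mSPL13 comparisons. The genotypes did not overlap for SPCH, nor did mSPL13 and SPL13 for YAB5. Leaving out an array or changing the pseudocount could therefore not turn the signs of those comparisons. Such signs are no test of SPCH or YAB5. For YAB5 in mSPL13 versus Col-0 the arrays overlapped, so its sign was not fixed in this way. That value was -0.12 without Col-0 replicate 2. The stricter filter (mean log2 above 8.291) removed both genes. With the pseudocount at the 40th percentile SPCH was at 0.87 in mSPL13 versus Col-0. Over the fits that leave out 1 array, SPCH ranged from 0.52 to 0.84 (mSPL13 versus SPL13), 0.98 to 1.29 (mSPL13 versus Col-0) and 0.33 to 0.55 (SPL13 versus Col-0), and YAB5 from -0.77 to -0.55, -0.65 to -0.12 and -0.01 to 0.52. The sign of YAB5 in SPL13 versus Col-0 turned without Col-0 replicate 1, at -0.01.

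The 1 stomatal gene called, SOL1, was reduced to 0 in mSPL13 versus SPL13 with no filter, the stricter filter, quantile normalization or median centring, and in mSPL13 versus Col-0 with no filter, the stricter filter, median centring, compared groups only or array quality weights. Leaving out 1 array gave 0 to 1 in both. The stricter filter leaves SOL1 out of the fit, and the cause of the other losses was not tested. The 414 calls of mSPL13 versus SPL13 became 236 with no filter and 688 with array quality weights, and were 200 to 468 with 1 array left out. The 596 of mSPL13 versus Col-0 became 373 with no filter, and were 248 to 903 with 1 array left out. The 7 of SPL13 versus Col-0 became 14 at the larger pseudocount, 24 with median centring, 2 on the compared groups only, and 1 with no filter or without trend, and were 1 to 148 with 1 array left out. The leaf polarity genes had 0 calls under every setting.

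The replicate number was not used as a pairing in the main fit. With the replicate block SPCH stayed at 0.66, 1.12 and 0.46 and YAB5 at -0.64, -0.45 and 0.19. A block that is even over the genotypes cannot move these values. In that fit 1 stomatal gene was called in each mSPL13 comparison. Array signals give no read depth, and FAMA, MUTE, TRY and INO lie below the filter on low signal.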
